A study of Nannospalax ehrenbergi and Mus musculus with 14 samples.

Results

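miR-26a-5p, miR-26b-5p, miR-101a-3p and miR-101b-3p are microRNAs of 2 families that are known in other systems as tumor suppressors acting on Ezh2. They were taken by name from the deposited small RNA tables, where they make up 4 of the 1326 rows, and they were followed in all 14 libraries. The animals were the blind mole rat Spalax, caught in the field and held in captivity, and C57BL/6 mice bought from a breeder. Each had received a single injection of the carcinogen 3-methylcholanthrene (3MCA) under the skin of the neck, with no untreated animal among the small RNA libraries used here. Spalax received 1 mg in 500 μl. Their ages were given as about 2 years or at least 10 years, without a label that ties an age to an animal. These are estimates, as the paper states that the age of Spalax cannot be determined exactly and gives a range from 2 to over 10 years. Mice received 200 μg in 200 μl at 3 to 4 months of age.

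Libraries came from the injected side (IS), which is the growth itself, and from muscle of the uninjected side (UIS) of the same animals. The Spalax granuloma group, a benign growth, held 2 females, operated 14 and 16 months after injection. The Spalax fibrosarcoma group, a malignant growth, held a female operated after 18 months and a male operated after 30 months. The mouse fibrosarcoma group held 3 males, operated after 11, 12 and 14 weeks. Animals are named here by the time at which they were operated. Granuloma and fibrosarcoma in Spalax therefore cannot be told apart from the months since injection, and species cannot be told apart from dose, age and time. Sex was not balanced either. All mice were male, and the only male Spalax was in the fibrosarcoma group, so the part of sex in these comparisons was not tested. One mouse UIS library could be placed in its group but not with an animal, which left 6 animals with a library from each side.

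MicroRNAs are short RNAs that guide the silencing complex to matching messenger RNAs and lower their output, mainly through pairing of a few bases near the 5′ end called the seed. Ezh2 is the catalytic subunit of the Polycomb repressive complex, which places a repressive methyl mark on histones and is often raised in tumors. miR-26a and miR-101 are known to repress Ezh2 in several tumor types and miR-26a also in differentiating muscle cells, where loss of Ezh2 accompanies the switch to muscle genes. The Ezh2 messenger itself was not analysed here, so the values describe the microRNAs and not their target.

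The hairpins from which the 4 microRNAs are cut are shown because both families hold near-identical copies, and counts of such copies can share reads. The sequences are those of the mouse transcripts in GENCODE M21 on GRCm38, which the submitters' processing notes name as the genome build. The capitals mark the longest run common to the 3 hairpins of the miR-26 family, and in the miR-101 pair the longest run common to both.
Mir26a-1: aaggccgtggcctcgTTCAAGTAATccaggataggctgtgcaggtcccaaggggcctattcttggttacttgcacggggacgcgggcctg
Mir26a-2: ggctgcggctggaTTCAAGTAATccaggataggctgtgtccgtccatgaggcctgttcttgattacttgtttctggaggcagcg
Mir26b: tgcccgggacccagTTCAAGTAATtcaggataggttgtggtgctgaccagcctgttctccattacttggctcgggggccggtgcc
Mir101a: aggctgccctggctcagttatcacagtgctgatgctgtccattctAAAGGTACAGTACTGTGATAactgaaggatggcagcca
Mir101b: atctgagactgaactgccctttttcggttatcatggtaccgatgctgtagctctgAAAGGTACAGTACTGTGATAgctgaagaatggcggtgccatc
The run of the miR-26 hairpins is 10 bases long and that of the miR-101 hairpins 20 bases long. Counted from the first capital over 22 bases, the Mir26a-1 and Mir26a-2 hairpins did not differ, and Mir26b differed from Mir26a-1 by C11T and C21T. Counted in the same way over 26 bases, Mir101b differed from Mir101a by A21G alone.

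The miR-26 genes lie inside genes of the CTD small phosphatase family. Mir26a-1 is at chr9:119031796-119031885 on the plus strand in an intron of Ctdspl, and Mir26b is at chr1:74394310-74394394 on the plus strand in an intron of Ctdsp1. Mir26a-2 is at chr10:126995530-126995613 on the plus strand within Ctdsp2, where it overlaps an annotated exon of at least one transcript. Mir101a is at chr4:101346945-101347027 on the minus strand and overlaps an exon of the long non-coding RNA E130102H24Rik. Mir101b is at chr19:29135279-29135375 on the plus strand in an intron of Rcl1. One arm of the Mir26a-1 and Mir26a-2 hairpins carries the same 22 bases, so miR-26a-5p cannot be assigned to either gene.

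A 6th hairpin, Mir101c at chr9:3038669-3038743 on the minus strand, shares a run of 19 bases with Mir101a, marked in capitals.
Mir101c: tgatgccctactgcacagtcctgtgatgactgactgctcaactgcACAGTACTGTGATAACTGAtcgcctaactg
The row named miR-101c held 1.01 to 1.02 times the reads of miR-101a-3p in each of the 14 libraries. With so even a ratio the rows cannot be told apart, and the reads of miR-101a-3p are counted in both. The counts therefore do not tell Mir101a from Mir101c as the origin. The hairpins differ in the bases next to the shared run on each side, but the sequences of the reads were not examined.

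Library totals ran from 2034574 to 9574014 microRNA reads at the IS and from 11446933 to 13982842 at the UIS, with the Spalax fibrosarcoma IS library of the 18-month animal the shallowest. Each deposited value is a read count divided by the size factor of its library, called a normalized count here. The 7 muscle microRNAs, among them miR-133a-3p and miR-1a-3p, took 27.7% to 37.3% of the reads at the UIS and 0.00959% to 3.94% at the IS, with miR-133a-5p at 0 in both Spalax fibrosarcoma IS libraries. The 4 leukocyte microRNAs took 0.0597% to 0.102% at the UIS and 0.323% to 2.30% at the IS, and the 3 fibroblast microRNAs 0.231% to 1.00% and 3.02% to 11.1%. By normalized counts all 3 fibroblast microRNAs were called higher at the IS of the granuloma and the mouse (limma, Benjamini-Hochberg adjusted p under 0.05). In the Spalax fibrosarcoma none of the 3 was called, with miR-199a-3p at 0.60, miR-199a-5p at 0.80 and miR-214-3p at 0.93. On the same scale the leukocyte list was split. miR-223-3p and both arms of miR-142a were higher at the IS in each group. All of these were called except miR-142a-5p in the mouse (1.35, limma adjusted p = 0.0965). miR-150-5p was lower, with log2 fold changes of -2.05 in the granuloma, -1.49 in the Spalax fibrosarcoma and -2.17 in the mouse. It was called in the granuloma alone (limma adjusted p = 0.0154, 0.0579 and 0.0905 in the same order). The 2 endothelial microRNAs, both arms of miR-126a, took 0.784% to 0.993% at the Spalax UIS and 0.395% to 0.743% at the Spalax IS, but 0.323% to 1.10% and 0.343% to 1.64% at the mouse UIS and IS, where the ranges overlapped. The 3 red cell microRNAs took 1.46% to 2.66% at the Spalax UIS and 0.263% to 1.25% at the Spalax IS, and 7.17% to 18.0% and 0.584% to 3.31% at the mouse UIS and IS. The UIS libraries carried the muscle microRNAs that their label calls for and the IS libraries lacked most of that signal, so every comparison of the sides also compares muscle with tissue that held little of it. Fewer cells of a type and less of a microRNA per cell cannot be told apart in such bulk samples.

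miR-26a-5p was by far the most abundant of the 4. It took 4.88% to 10.8% of all microRNA reads at the UIS and 2.92% to 8.67% at the IS. miR-26b-5p, with the same seed region, took 0.169% to 0.394%, and miR-101a-3p took 0.0752% to 0.288%. miR-101b-3p took 0.0250% to 0.0751% in mice and 0.000952% to 0.00188% in Spalax. The lowest member count was 24 reads of miR-101b-3p in the IS of the 18-month animal, a share of 0.00118% with an exact 95% binomial interval of 0.000756% to 0.00176%, which covers counting error only.

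**Figure D1:**
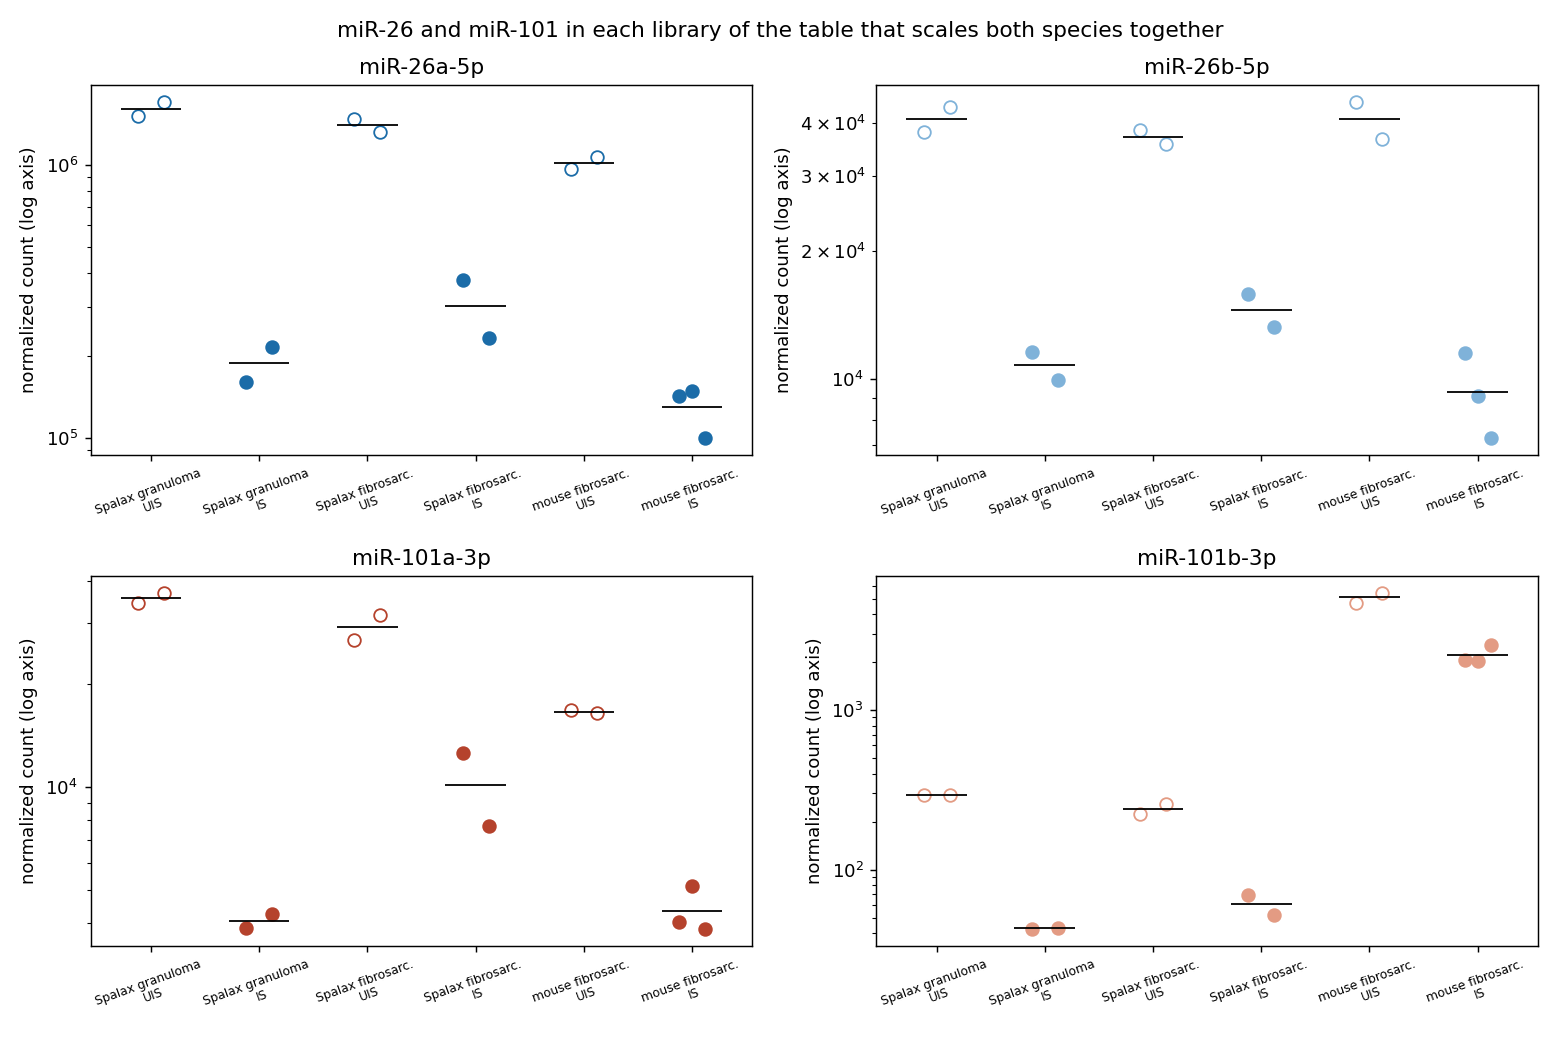
Normalized counts (log axis) of the 4 microRNAs in the 13 libraries of the table that scales both species together, with open circles for UIS, filled circles for IS and a line at each group mean. In each panel the IS libraries of a group lie below its UIS libraries on this scale, and miR-101b-3p is at 42.4 to 295 in Spalax against 2020 to 5461 in mice.

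The first question was how the 4 microRNAs stood in the Spalax granuloma against the muscle of the other side. All 4 were lower at the IS, by 1.93 to 3.13 on the log2 scale, and by the same direction but smaller amounts (0.08 to 1.28) when values were scaled by library totals. For miR-26a-5p, which is known to restrain growth and to promote muscle differentiation, the UIS values were 1507667 in the 14-month animal and 1698945 in the 16-month animal, and the IS values 160625 and 215372. The IS values were below the UIS values without overlap, and the log2 fold change was -3.11 (SE 0.30, adjusted p = 0.000342). Its paralog miR-26b-5p went from 38115 and 43568 at the UIS to 11595 and 9924 at the IS. This was the smallest change of the 4, with a log2 fold change of -1.93 (SE 0.29, adjusted p = 0.00186).

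miR-101a-3p, the more abundant miR-101 in Spalax, measured 34346 and 36905 at the UIS of the 14-month and 16-month animals and 3880 and 4264 at the IS. The pairs of values did not overlap, and the log2 fold change was -3.13 (SE 0.34, adjusted p = 0.000596). miR-101b-3p measured 293 and 295 at the UIS and 42.4 and 43.1 at the IS. Although it is scarce in Spalax, its replicates were close together, and the log2 fold change was -2.75 (SE 0.42, adjusted p = 0.0019). All 4 microRNAs were thus called lower by limma with Benjamini-Hochberg adjustment, where 22.8% of the 447 microRNAs tested were called lower.

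The next comparison asked the same of the Spalax fibrosarcoma. All 4 were again lower at the IS by the deposited scaling, by 1.36 to 2.24 on the log2 scale, whereas with library totals miR-26b-5p and miR-101a-3p stood at 0.33 and 0.12 and no member was called. miR-26a-5p measured 1472265 in the 30-month animal and 1318815 in the 18-month animal at the UIS, and 377178 and 232053 at the IS. Both IS values were under both UIS values, and the log2 fold change was -2.24 (SE 0.30, adjusted p = 0.00148). miR-26b-5p measured 38560 and 35732 at the UIS and 15820 and 13225 at the IS, a log2 fold change of -1.36 (SE 0.29, adjusted p = 0.0101).

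In the same animals miR-101a-3p measured 26755 and 31819 at the UIS and 12538 and 7700 at the IS. The tumor of the 30-month animal held more of it than that of the 18-month animal, and the log2 fold change was -1.57 (SE 0.34, adjusted p = 0.0107). miR-101b-3p measured 223 and 259 at the UIS and 69.1 and 52.1 at the IS, with a log2 fold change of -1.98 (SE 0.42, adjusted p = 0.00981). The 4 calls stand beside 22.1% of the 447 microRNAs called lower. With the UIS library of the 30-month animal left out 1 of the 4 calls was left, and likewise 1 without that of the 18-month animal.

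In the mouse fibrosarcoma, the values come from the separate mouse table with its own size factors. All 4 were lower at the IS by 1.15 to 3.02 on the log2 scale, but with library totals miR-26b-5p, miR-101a-3p and miR-101b-3p stood at 0.20, 0.45 and 1.23, the last called higher (adjusted p = 0.0133). miR-26a-5p measured 1276363 in the 12-week animal, 1310130 in the 11-week animal and 1070347 in the library without an animal at the UIS. At the IS it measured 169430, 177921 and 111959 in the 14-week, 12-week and 11-week animals. No IS value came near the UIS values, and the log2 fold change was -3.02 (SE 0.27, adjusted p = 0.000581).

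miR-26b-5p fell from 59566, 45281 and 42490 at the mouse UIS to 13690, 10951 and 8136 at the IS, with the libraries in the same order. Its log2 fold change was -2.18 (SE 0.31, adjusted p = 0.00231), the larger fall of miR-26a-5p being a description across microRNAs and not a test. miR-101a-3p went from 22188, 20210 and 15900 at the UIS to 4792, 6180 and 4323 at the IS, a log2 fold change of -1.93 (SE 0.29, adjusted p = 0.00269).

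miR-101b-3p, the second miR-101, had a far larger share of the reads in mice than in Spalax and changed least. It measured 6243, 6728 and 4466 at the mouse UIS and 2468, 2429 and 2883 at the IS. The groups did not overlap, and the log2 fold change was -1.15 (SE 0.30, adjusted p = 0.0165). The 4 mouse calls stand beside 25.6% of the 547 microRNAs called lower. The call for miR-101b-3p was lost with the animal as a replicate block (adjusted p = 0.0620), without the IS library of the 12-week mouse (adjusted p = 0.0568) and without its UIS library (adjusted p = 0.0700). The muscle microRNAs were at 0.0100% in the IS of the 14-week animal and at 2.57% and 3.94% in those of the 12-week and 11-week animals, and the part of this difference in the results was not tested.

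The size of these changes depended on the scaling. The median change of all microRNAs tested was 0.13 in the granuloma, -0.23 in the Spalax fibrosarcoma and 0.21 in the mouse fibrosarcoma by the deposited size factors. With library totals these medians were 1.71, 1.14 and 2.24. Totals at the UIS include the muscle share given above, and its part in this gap was not tested. Measured from the median, the 4 members changed by -3.26 to -2.05, -2.01 to -1.13 and -3.23 to -1.36 in the 3 comparisons by the deposited scaling. With totals the same distances were -2.99 to -1.79, -1.69 to -0.81 and -2.87 to -1.01. All 12 changes therefore lay below the median microRNA under both scalings, although the absolute direction of 5 of them depended on the scaling.

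**Figure D2:**
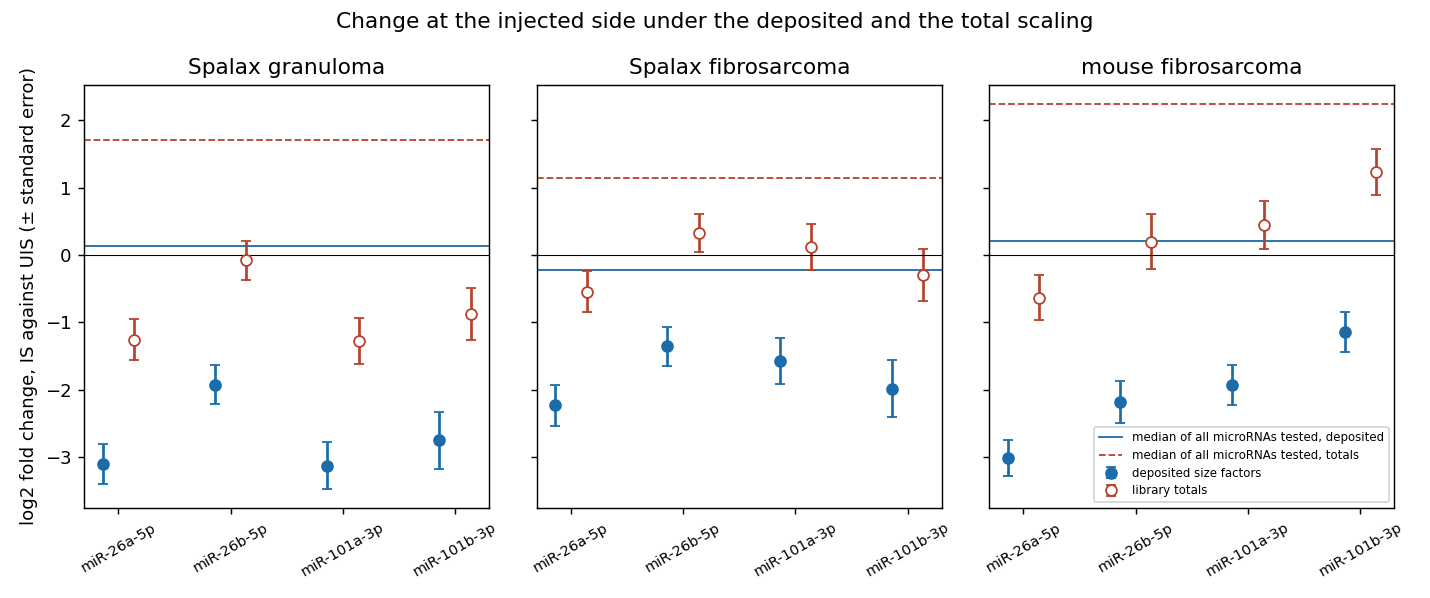
Log2 fold change of IS against UIS (points, with bars for the standard error) for the 4 microRNAs, by the deposited size factors (filled) and by library totals (open), with lines at the median of all microRNAs tested under each scaling. Every point lies below the line of its own scaling, while open points lie above 0 for miR-26b-5p and miR-101a-3p in both fibrosarcomas and for miR-101b-3p in the mouse.

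Among all microRNAs the members were in the lower part of the distribution. Ranked by change, miR-26a-5p stood at percentile 10.7 in the granuloma, 18.8 in the Spalax fibrosarcoma and 8.59 in the mouse fibrosarcoma. miR-26b-5p stood at 21.5, 29.5 and 14.4, and miR-101a-3p at 9.84, 26.8 and 17.4. miR-101b-3p stood at 14.3, 21.7 and 28.2. Of the 7 muscle microRNAs all 7 were called lower in each Spalax comparison and 3 in the mouse, with median log2 changes of -10.75, -12.98 and -6.28. They lay at percentiles 0.224 to 1.79 in both Spalax comparisons, below every member, and at 0.183 to 9.51 in the mouse, where miR-208b-3p at 9.51 lay above miR-26a-5p. By the deposited scaling both arms of miR-126a were called lower in all 3 comparisons, with median log2 changes of -2.30, -2.36 and -2.31 beside -2.93, -1.78 and -2.06 over the 4 members. Of the 3 red cell microRNAs 1 was called lower in each, miR-486a-5p, at -4.65, -4.26 and -5.47. The other 2 were not called in any of the 3 comparisons, with miR-144-3p at -0.16, -0.19 and -1.20. The medians of the red cell list were -1.07, -1.29 and -2.54, so miR-486a-5p does not stand for the whole list. The part of these cell types in the members' changes was not tested.

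**Figure D3:**
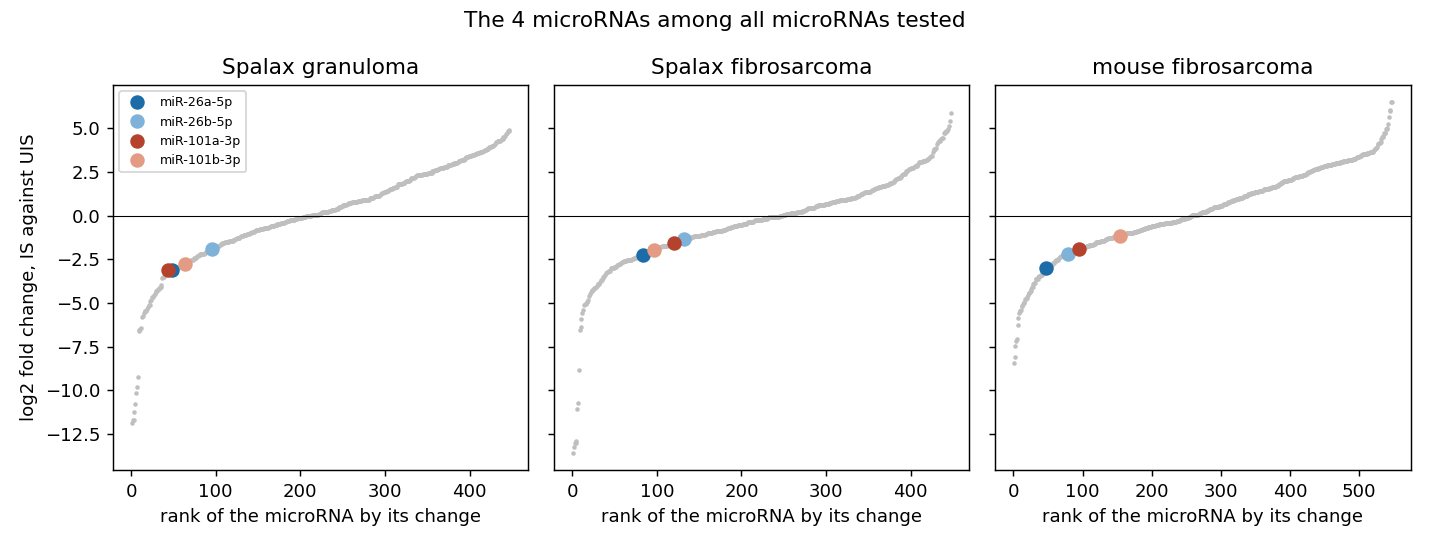
Log2 fold change of IS against UIS by the deposited scaling for every microRNA tested (grey, in order of rank), with the 4 members in color. The members sit between percentiles 8.59 and 29.5.

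Whether the granuloma and the fibrosarcoma of Spalax changed by different amounts was tested as a difference of changes. The granuloma change less the fibrosarcoma change was -0.87 for miR-26a-5p, -0.57 for miR-26b-5p, -1.56 for miR-101a-3p and -0.77 for miR-101b-3p on the log2 scale. None of the 4 differences passed the test, and 3.8% of the 447 microRNAs did. The difference for miR-101a-3p came nearest, with a 95% interval of -2.70 to -0.42 and an adjusted p of 0.0949. It was called by DESeq2 (adjusted p = 0.0112) and without the IS library of the 18-month animal (adjusted p = 0.0457). The intervals of miR-26a-5p (-1.86 to 0.12), miR-26b-5p (-1.53 to 0.39) and miR-101b-3p (-2.16 to 0.62) each reached 0 and still allowed large differences.

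Set side by side, the granuloma IS was below the fibrosarcoma IS for all 4 members. The median log2 difference over all microRNAs tested was also below 0, at -0.27. miR-26a-5p, miR-26b-5p and miR-101b-3p were at -0.67, -0.43 and -0.48, or percentiles 31.8, 42.1 and 40.3. miR-101a-3p stood at percentile 10.3. Only miR-101a-3p was called, with 3880 and 4264 against 12538 and 7700, and a log2 difference of -1.27 (SE 0.34, adjusted p = 0.0407). At this threshold 3.36% of the 447 microRNAs were called lower in the granuloma IS. Its adjusted p ran from 0.000821 to 0.177 over the settings run, among them 0.0973 without the fibrosarcoma IS of the 30-month animal, 0.139 without the granuloma IS of the 14-month animal and 0.0932 without that of the 16-month animal. Without the IS of the 18-month animal, miR-26a-5p was called too (adjusted p = 0.0374). The leukocyte microRNAs took 0.675% to 0.770% of the granuloma IS and 0.841% to 2.30% of the fibrosarcoma IS, the fibroblast microRNAs 10.7% to 11.1% and 3.02% to 5.31%, and their part was not tested.

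The UIS of both Spalax groups differed by 0.13 to 0.29 on the log2 scale over the 4 members, with none called. By limma 0 of the 447 microRNAs were called in this comparison, where 5 had an unadjusted p under 0.05, and edgeR and DESeq2 also called 0. The widest interval, that of miR-101b-3p, ran from -0.69 to 1.27. The difference of miR-26b-5p, 0.13, turned to -0.051 with library totals.

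Across species, the changes in the fibrosarcomas were compared in the table that holds both species, with 2 mouse UIS libraries in place of 3. The Spalax change less the mouse change was 0.75 for miR-26a-5p, 0.80 for miR-26b-5p, 0.37 for miR-101a-3p and -0.78 for miR-101b-3p. None was called, while 26% of the 607 microRNAs tested were. The intervals were -0.18 to 1.68, -0.09 to 1.68, -0.56 to 1.30 and -1.80 to 0.23, so differences of more than 1 on the log2 scale remained possible for each. With library totals the value of miR-101a-3p turned to -0.37 and that of miR-101b-3p was called at -1.52 (adjusted p = 0.0381).

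The levels in the muscle of the UIS set the species apart mainly through miR-101. miR-101b-3p measured 223 to 295 normalized counts in the 4 Spalax UIS libraries and 4710 and 5461 in the mouse ones. The log2 difference was -4.25 (SE 0.29, adjusted p = 1.15e-06). For miR-101a-3p the Spalax UIS values of 26755 to 36905 were above the mouse values of 16739 and 16405, a log2 difference of 0.96 (SE 0.27, adjusted p = 0.0154). That call was lost without the UIS of the 12-week mouse (adjusted p = 0.0694), without that of the 11-week mouse (adjusted p = 0.0786) and by edgeR with TMM factors (adjusted p = 0.0767). At the same threshold 12.4% of the 607 microRNAs were called higher and 27.3% lower in Spalax.

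miR-26 differed less between species. miR-26a-5p was at 1318815 to 1698945 in the Spalax UIS and at 962917 and 1063462 in the mouse UIS, a log2 difference of 0.56 with a 95% interval of -0.03 to 1.16 that was not called (adjusted p = 0.124), but was called when the fit held only the compared libraries (adjusted p = 0.0221). miR-26b-5p was at 35732 to 43568 in Spalax and at 44938 and 36755 in mice, a difference of -0.06 (interval -0.63 to 0.50) that turned to 0.15 with library totals. The summed red cell share given above was higher at the mouse UIS than at the Spalax UIS, but the list was split by normalized counts. Of the 3 red cell microRNAs 1 was called lower in Spalax and 2 were not called, with miR-144-3p at -0.01. Their median log2 difference was -0.21, beside -0.31 over all microRNAs tested. The part of red cells in these differences was not tested. The reads of both species carry mouse microRNA names. Whether a difference between the Spalax and mouse sequences of miR-101b changed how reads were assigned was not tested.

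Over the 6 groups of the joint table, miR-26a-5p was ordered from the granuloma UIS (1603306 ± 135254, SD, n = 2) through the fibrosarcoma UIS (1395540 ± 108506, n = 2) and the mouse UIS (1013189 ± 71096, n = 2). Next came the fibrosarcoma IS (304616 ± 102619, n = 2) and the granuloma IS (187999 ± 38712, n = 2). The mouse IS (130050 ± 26420, n = 3) was lowest. No neighbours in this order had overlapping values, but with 2 or 3 libraries in a group this is a description and not a test. Granuloma less fibrosarcoma was 0.20 at the UIS (interval -0.50 to 0.90) on the log2 scale. At the IS it was -0.67 (interval -1.37 to 0.03), and neither difference was called. For miR-26b-5p the 3 UIS groups overlapped with each other, at means of 37146 to 40847, as did the granuloma and mouse IS groups at 10760 and 9288. For miR-101a-3p the mouse IS (4339 ± 698, n = 3) and the granuloma IS (4072 ± 271, n = 2) overlapped at the low end. For miR-101b-3p no neighbours overlapped, which is again a description. Its granuloma less fibrosarcoma differences, 0.29 at the UIS (interval -0.69 to 1.27) and -0.48 at the IS (interval -1.46 to 0.50), were not called. Even the lowest mouse group, the IS at 2221 ± 301 (n = 3), was above the highest Spalax group, the granuloma UIS at 294 ± 1.02 (n = 2).

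Ratios between family members inside a library do not depend on the scaling. miR-26a-5p had 36.9 to 39.6 times the reads of miR-26b-5p at the Spalax UIS and 13.9 to 23.8 times at the Spalax IS. In mice the ratio was 21.4 to 28.9 at the UIS and 12.4 to 16.2 at the IS. The log2 ratio was lower at the IS in 6 of 6 animals, with a mean difference of -0.93 (SD 0.38). An exact two-sided sign-flip permutation test gave p = 0.0312, the smallest that 6 animals allow, and 0.0938 after adjustment over the 3 ratios tested, so the shift towards miR-26b-5p failed the correction. With 3 ratios and 6 animals, a single ratio at the smallest p cannot pass whatever its size, and would do so only if another ratio reached that p too.

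The ratio of miR-101a-3p to miR-101b-3p set the species apart. It was 91.4 to 181 in the 8 Spalax libraries and 1.50 to 3.56 in the 6 mouse libraries. The reads of both species carry mouse names, and the part of read assignment in this ratio was not tested. Between the sides it was lower at the IS in 4 animals and higher in 2, the granuloma and mouse pairs falling and both Spalax fibrosarcoma pairs rising by 0.27 and 0.59 on the log2 scale. The mean change was -0.22 (SD 0.57), with p = 0.406 by the exact sign-flip permutation test, and no test of the difference between groups was made.

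The summed reads of both miR-26 over both miR-101 were lower at the IS in 5 of 6 animals, with a mean difference of -0.64 on the log2 scale (SD 0.67). The exact sign-flip permutation test gave p = 0.0938, or 0.141 adjusted over the 3 ratios. The granuloma pairs moved by -0.02 and 0.16, while the mouse pairs moved by -1.10 and -1.59. Within Spalax alone the smallest p that 4 animals allow is 0.125 and within mice that of 2 animals is 0.5, so neither species could pass the test on its own.

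**Figure D4:**
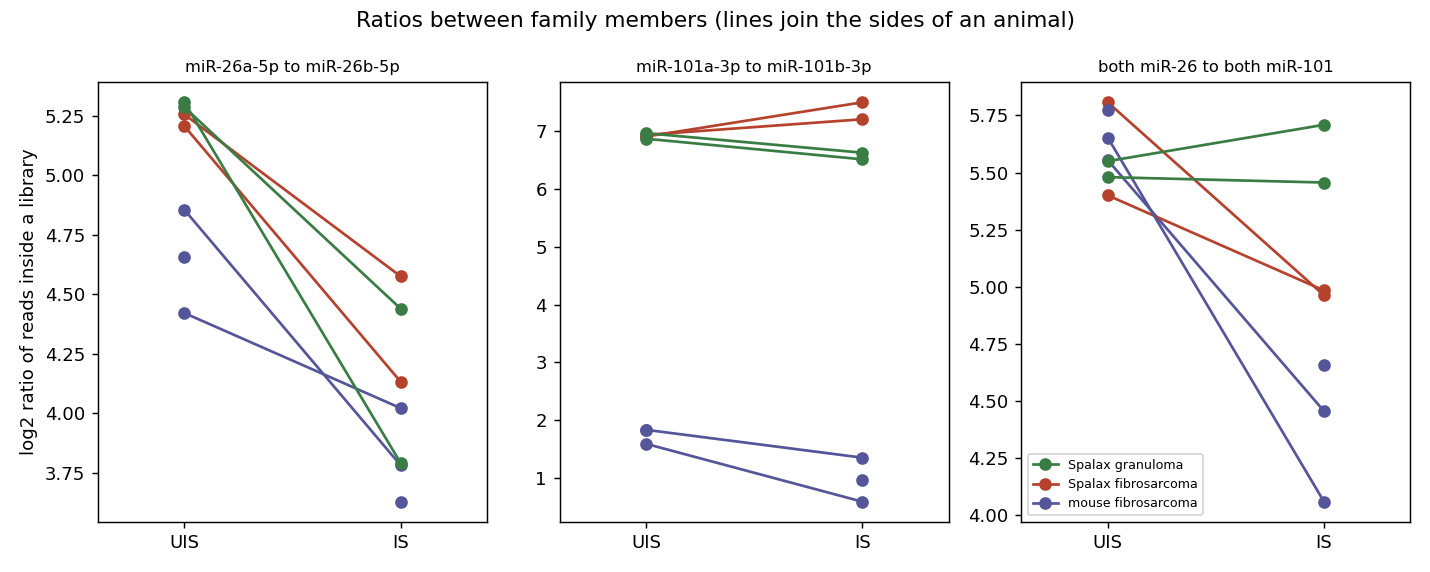
Log2 ratio of reads inside each of the 14 libraries for the 3 pairs of members, with lines joining UIS and IS of an animal and color for the group, each panel on its own axis. Every line falls for miR-26a-5p to miR-26b-5p, and Spalax and mouse form separate bands for miR-101a-3p to miR-101b-3p.

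As a share of all microRNA reads, the 4 members together took 9.65% to 11.3% at the Spalax UIS, 3.95% to 5.13% at the granuloma IS and 5.73% to 9.32% at the Spalax fibrosarcoma IS. In mice they took 5.14% to 7.38% at the UIS and 3.32% to 5.48% at the IS, so the mouse ranges overlapped. In 6 of 6 animals the IS had the lower summed share, and IS less UIS averaged -3.66 percentage points (SD 2.00, exact sign-flip permutation p = 0.0312, the smallest possible). This sum is nearly all miR-26a-5p. Without the muscle microRNAs in the denominator the mean difference was -8.35 percentage points (SD 3.45, exact permutation p = 0.0312).

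Other products of the same hairpins were sparse. Of 6 rows, 4 passed the filter on low values, and miR-26a-1-3p and miR-101b-5p did not, with at most 15 and 3 reads in a library. miR-101a-5p, from the other arm of Mir101a and not shared with the miR-101c row, was at 197 and 248 normalized counts at the granuloma UIS and 8.74 and 12.7 at the IS. Its log2 changes of -4.27 (adjusted p = 0.000596) in the granuloma, -1.93 (adjusted p = 0.0148) in the Spalax fibrosarcoma and -2.03 (adjusted p = 0.00471) in the mouse were all called lower.

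The other arm of Mir26a-2, miR-26a-2-3p, was called lower in the granuloma (-1.78, adjusted p = 0.0203) and the mouse (-1.45, adjusted p = 0.0332), and was at -0.99 (adjusted p = 0.150) in the Spalax fibrosarcoma. miR-26b-3p was called lower in the mouse alone (-1.46, adjusted p = 0.0141), with -0.95 and -0.26 in the granuloma and the Spalax fibrosarcoma. miR-101c repeated the miR-101a-3p values and adds nothing to them.

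Of 13 other microRNAs known to target Ezh2, 11 were tested, and they did not move as one group. In the granuloma 1 was called higher and 1 lower, in the Spalax fibrosarcoma 0 and 2, and in the mouse 1 and 6. Over all microRNAs tested 25.5%, 15.2% and 32.2% were called higher in these comparisons, and 22.8%, 22.1% and 25.6% lower. Their median log2 changes were -0.16, -0.26 and -0.95, against medians over the 4 members of -2.93, -1.78 and -2.06 and over all microRNAs of 0.13, -0.23 and 0.21. miR-30d-5p was the one called lower in all 3, at -3.19, -2.38 and -1.95. The largest fall in the mouse was that of miR-124-3p, at -5.83 (limma adjusted p = 0.000198), larger than that of any member. In the granuloma and the Spalax fibrosarcoma it was at -0.23 and -1.42 and not called. miR-214-3p, which is also on the list of fibroblast microRNAs, was called higher in the granuloma (3.12, adjusted p = 0.00127) and the mouse (2.36, adjusted p = 0.0066) and was at 0.93 (adjusted p = 0.126) in the Spalax fibrosarcoma.

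The let-7 microRNAs, regulators of growth and differentiation that include miR-98, made up 5 of the 11. Of these, let-7a-5p was at -0.02 in the granuloma, where it was not called, and was called lower in the Spalax fibrosarcoma (-1.17, adjusted p = 0.0324) and the mouse (-1.65, adjusted p = 0.00531). let-7b-5p, let-7c-5p and miR-98-5p were called lower in the mouse, at -1.29, -0.95 and -0.94, and not in Spalax. let-7e-5p was not called in any of the 3 comparisons.

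The microRNAs whose levels followed a member most closely over the 8 Spalax and 6 mouse libraries were ranked by the mean of both Pearson coefficients, as a description over libraries that share the contrast of IS with UIS. miR-26a-5p was nearest to miR-29c-5p (mean r 0.996), miR-29b-2-5p (0.993) and miR-30c-5p (0.992), out of 402 compared. miR-26b-5p was nearest to miR-30d-5p (0.994), miR-26a-5p (0.988) and miR-30b-5p (0.988). miR-101a-3p, after miR-101c, which shares its reads, was nearest to miR-29c-3p (0.989) and miR-29c-5p (0.986). miR-101b-3p was nearest to miR-22-3p (0.974), miR-29c-5p (0.973) and miR-378b (0.971).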

How the data were processed

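Small RNA libraries (TruSeq Small RNA kit) from 14 samples were used. The authors deposited 2 tables whose values are a signal on the scale of reads divided by a DESeq2-type size factor, 1 for Spalax with 5 mouse libraries and 1 for mice. The submitters' processing notes name TopHat 1.4.1, HTSeq, DESeq and GRCm38, and the paper names mirDeep for mapping. Whole reads were recovered from the steps between low values, with 100% of values whole within a relative tolerance of 1e-06, and the tables gave the same reads for the 5 shared libraries. Shares of reads carry exact 95% binomial intervals.

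Values were tested as log2(value + 1) with limma 3.58.1 (trend) in R 4.3.3, so that fold changes understate those of low microRNAs, after a filter of at least 10 in 2 Spalax, 3 mouse or 2 joint libraries. Benjamini-Hochberg adjustment ran over all microRNAs tested, with a threshold of 0.05. One fit held the 8 Spalax libraries, 1 the 6 mouse libraries and 1 the 13 libraries of the joint table. edgeR 4.0.16 and DESeq2 1.42.0 on the recovered reads were alternatives. The fits were tested on simulated reads in which 200 microRNAs changed by 3 on the log2 scale. Comparisons of 1 side or group with another recovered 79% to 87% of these. The tests of a difference of changes recovered fewer, 49.5% for granuloma less Spalax fibrosarcoma and 38% for Spalax less mouse fibrosarcoma.

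The sides of an animal are paired by design. The correlation of their deviations was 0.0933 in the granuloma, 0.00405 in the Spalax fibrosarcoma, and -0.107 and 0.122 in the 12-week and 11-week mice. Animals are separate replicates, and no libraries of a group agreed within sampling noise. The members and the lists (muscle, leukocyte, fibroblast and other markers, and microRNAs known to target Ezh2) were chosen with earlier results of these data known. Named microRNAs are the members, the other products of their hairpins, the list of Ezh2-targeting microRNAs and the 3 most like each member. Marker microRNAs are named from their lists, the choice among them being made after their values were seen. Ratios and summed shares were tested by exact sign-flip permutation over 6 animals with Python 3.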

Additional observations from a re-analysis of the deposited data

How the results depend on the processing

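The 4 calls in the granuloma held under all settings but library totals, where 2 were left. In the Spalax fibrosarcoma the 4 calls became 0 with library totals and 1 to 4 when each library was left out, and in the mouse 1 call was left with library totals, that of miR-101b-3p in the other direction (1.23). The totals also turned miR-26b-5p to 0.33 and miR-101a-3p to 0.12 in the Spalax fibrosarcoma, and to 0.20 and 0.45 in the mouse. The cause was not tested. Relative to the median of all microRNAs the 4 members were lower under every setting run, by -3.63 to -0.81 over the 3 comparisons.

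The difference between the granuloma and fibrosarcoma changes had 0 calls, but 1 by DESeq2 and 0 to 1 with a library left out. The single call between the IS of both was lost (0) with edgeR and TMM factors, with size factors that leave out the muscle microRNAs or the 4 members, without the filter, without the trend and with only the compared libraries, and ran from 0 to 2 with a library left out. Against mouse UIS the 2 calls became 1 with edgeR and TMM factors and 1 to 2 with a library left out, a fit of only the compared libraries also called miR-26a-5p (adjusted p = 0.0221), and the difference of miR-26b-5p turned to 0.15 with totals and ran from -0.21 to 0.082 with a library left out, the upper end without the UIS of the 12-week mouse. Between the Spalax UIS groups it turned to -0.051 with totals. The difference of species changes had 1 call with totals, and miR-101a-3p turned to -0.37. The fall of the summed share ran from -4.08 to -3.15 percentage points with an animal left out, at an exact p of 0.0625 that is the smallest for 5 animals. A replicate block for the animal left 4 member calls in the granuloma, 4 in the Spalax fibrosarcoma and 3 in the mouse, and changed no other member's call. Counts of all microRNAs called ran from 129 to 295 in the granuloma, 77 to 235 in the Spalax fibrosarcoma and 213 to 407 in the mouse over the settings. These ranges count calls in either direction and are not given setting by setting. They do not show whether a lost member call went with fewer calls over all microRNAs. Depth limits miR-101b-3p in Spalax, which rests on 24 to 241 reads.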
